A study of Mus musculus with 13 samples.

Results

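The regions described here are the distal intergenic entries of the class that the deposited table calls Enh far from TSS (TSS, transcription start site). A region was a member when it lay on an autosome, belonged to that class and shared no base with an entry of the table's Gene Body class. The rule found 9493 regions, out of 18913 autosomal far Enh regions and 240814 regions of all classes. A filter that removed regions with a mean of both values below 0.1 took out 7, and 9486 on 19 autosomes were described. The cells were mouse neural stem and progenitor cells, isolated from E14.5 cortex and ganglionic eminences, grown as neurospheres and taken on day 3 of passage 5. Kat7-deleted cultures were Kat7lox/loxNesCreT/+ and Kat7-intact cultures were Kat7+/+NesCreT/+, so both carried a Cre transgene named for nestin (Nes), an intermediate filament of neural progenitors. The labels name 7 H3K14ac libraries (4 intact, 3 deleted), 4 KAT7 libraries (3 intact, 1 deleted) and 2 IgG libraries. The deposited values are 1 merged column for each antibody, which does not separate genotypes or animals, so nothing here compares intact with deleted cells, no value carries a replicate error and no test was possible.

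Enhancers are stretches of DNA that bind transcription factors and raise the transcription of genes that can lie far away, and distal ones carry much of the difference between cell types. KAT7, also called HBO1, is a lysine acetyltransferase that works in complexes with scaffold proteins of the BRPF and JADE families and acetylates lysine 14 of histone H3 (H3K14ac), a mark of open chromatin. Values are RPKM, the reads of a region scaled to its length and to the read total of the column, with the 95% Poisson interval in parentheses. The column totals were 141734087 reads for H3K14ac and 134111848 for KAT7. Intervals, those of ratios included, cover counting error only, since reads are not independent molecules and no replicates stand behind them.

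The members came in 2 forms. Of the 9486, 4404 were exactly 151 bases long, and all 4404 had a start coordinate that is a multiple of 20, against 742 of the 5082 others. Another 639 had over 160 and up to 700 bases and 4443 had more than 700, with a median of 1300 and a maximum of 10382 bases. The nearest TSS of a gene in the table lay between 12.1 kb and 1989 kb away, with a median of 73.1 kb, and 3538 genes were the nearest gene of at least 1 member. Members 20 to 50 kb from a TSS were the most frequent (2611), 966 lay 10 to 20 kb away, 398 lay over 500 kb away, and none lay within 10 kb.

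The name intergenic held only for the genes of the table. Against the RefSeq genes of GRCm38.p6, which has the coordinates of the authors' mm10 build, 2944 members (31.0%) overlapped a gene, among them 2006 in a long noncoding RNA gene and 956 in a protein-coding gene. A RefSeq promoter window, the 250 bases before and 50 after a gene's start, overlapped 490 members (5.17%), and 409 of those windows belonged to genes absent from the table. Of the table's other classes, Pseudogenes overlapped 3598 members, IS far from TSS 756, either set of H3K9me3 domains 729, CpG far from TSS (islands of CG-dense DNA away from genes' starts) 470 and Post TES windows 113. No member overlapped an entry of the classes Promoter, Enh near TSS, IS near TSS or CpG near TSS. Of 10 marker genes of neural stem and progenitor cells, Fabp7, Nes, Sox2 and Vim were in the top 5% of genes by expression (the class the table calls Top), and none was in the Bottom class. None of 14 markers of neurons, oligodendrocytes, blood, endothelium and muscle found in the table was in the Top class, but Olig1, an oligodendrocyte lineage gene outside these 14, was. The Bottom class held 1 of the 14, Cdh5, so most markers of either kind were in neither class.

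Sequence could be read for the 61 members of 151 bases that lay wholly inside a RefSeq promoter window. They are shown because H3K14ac was lower where CG dinucleotides, the unit that defines a CpG island, were many. The 4 with most CG, which include the only one without an H3K14ac read, are printed first, with every CG in capitals, on the plus strand and 5′ to 3′, from RefSeq in GRCm38.p6 coordinates. They lie at chr19:43940180-43940330 in the Dnmbp window (27 CG), chr5:110544240-110544390 in the Galnt9 window (27 CG), chr8:125569880-125570030 in the Sipa1l2 window (19 CG) and chr7:138397720-138397870 in the Tcerg1l window (18 CG).
Dnmbp window: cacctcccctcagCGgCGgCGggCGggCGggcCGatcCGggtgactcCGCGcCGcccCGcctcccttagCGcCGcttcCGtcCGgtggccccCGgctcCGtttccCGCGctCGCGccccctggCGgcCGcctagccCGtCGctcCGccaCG
Galnt9 window: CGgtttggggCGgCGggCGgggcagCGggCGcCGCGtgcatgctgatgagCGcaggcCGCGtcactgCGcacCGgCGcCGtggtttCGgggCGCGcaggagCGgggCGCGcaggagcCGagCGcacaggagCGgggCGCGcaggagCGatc
Sipa1l2 window: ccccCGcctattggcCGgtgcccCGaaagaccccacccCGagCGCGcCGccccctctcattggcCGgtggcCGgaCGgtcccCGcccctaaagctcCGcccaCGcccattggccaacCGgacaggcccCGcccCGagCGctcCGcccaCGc
Tcerg1l window: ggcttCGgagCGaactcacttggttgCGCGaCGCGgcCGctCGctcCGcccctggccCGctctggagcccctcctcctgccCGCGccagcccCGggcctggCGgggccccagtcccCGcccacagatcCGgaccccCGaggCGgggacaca

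The next 3 are the regions of the 61 that were high for both antibodies, where high means at or above the 95th percentile of the far Enh regions of the same length band. They lie at chr10:91888620-91888770 in the window of the noncoding gene Gm31592 (1 CG, nearest gene of the table Rmst), chr9:24974060-24974210 in the E130101E03Rik window (2 CG, Herpud2) and chr16:31508200-31508350 in the Gm46560 window (4 CG, Bdh1).
Gm31592 window: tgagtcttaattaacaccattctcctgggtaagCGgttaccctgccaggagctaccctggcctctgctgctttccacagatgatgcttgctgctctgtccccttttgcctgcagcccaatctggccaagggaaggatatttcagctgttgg
E130101E03Rik window: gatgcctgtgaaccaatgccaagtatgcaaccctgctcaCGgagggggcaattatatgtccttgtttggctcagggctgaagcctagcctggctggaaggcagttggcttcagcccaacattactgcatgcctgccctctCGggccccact
Gm46560 window: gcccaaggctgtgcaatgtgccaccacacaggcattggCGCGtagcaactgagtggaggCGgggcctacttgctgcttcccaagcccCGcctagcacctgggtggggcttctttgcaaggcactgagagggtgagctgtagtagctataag

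The 4 CG-dense regions held 0 to 7 H3K14ac reads and 5 to 12 KAT7 reads, where the median short member had 12 of either. In the region in the Dnmbp window, at the RefSeq start of the gene for a scaffold protein that activates the GTPase Cdc42 and 27.9 kb upstream of its TSS in the table, no H3K14ac read was counted against 12 KAT7 reads. The 95% interval of its H3K14ac level reached up to 0.174 RPKM, and that of KAT7 over H3K14ac by scaled reads began at 2.94. The Galnt9 window, at a gene for an enzyme that starts O-glycosylation, had 1 H3K14ac and 8 KAT7 reads. The Sipa1l2 region had 7 and 8 reads, and the Tcerg1l region had 2 and 5. The CG-poor regions had more of both, with 21 H3K14ac and 23 KAT7 reads in the Gm31592 window, 21 and 25 in the E130101E03Rik window and 25 and 27 in the Gm46560 window. Both sets were picked by an extreme, the first by CG number and the second by the reads themselves, so the second is a description alone.

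Over all 61, the motif CG (its own reverse complement, so 1 strand was searched) was found in 98.4%, against 85.4% of the central 151 bases of 32851 RefSeq promoter windows. At least 8 CG were in 36.1% of the members and 32.4% of those windows. The 22 members with 8 or more CG had an H3K14ac level of 0.280 RPKM (0.234 to 0.332), with 0 to 18 reads each and a median of 4.5. The 39 with fewer had 0.557 (0.508 to 0.610), with 4 to 25 reads and a median of 11. KAT7 stood at 0.517 (0.453 to 0.589) in the first group and 0.686 (0.629 to 0.746) in the second, with 5 to 18 and 5 to 27 reads. Reads per region overlapped between the groups for both antibodies, although the summed levels of both were lower in the CG-rich group by more than their intervals. Across the 61 regions the rank correlation of CG number with H3K14ac was -0.57 and that with KAT7 was -0.24, a description over regions that share libraries, depth and base composition. Median GC content was 67.9% in the CG-rich and 50.3% in the CG-poor group, and 16 of 22 against 1 of 39 lay on a far CpG island. GC content therefore moved with the comparison, and the part of GC-rich DNA recovery in the libraries was not tested.

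**Figure D1:**
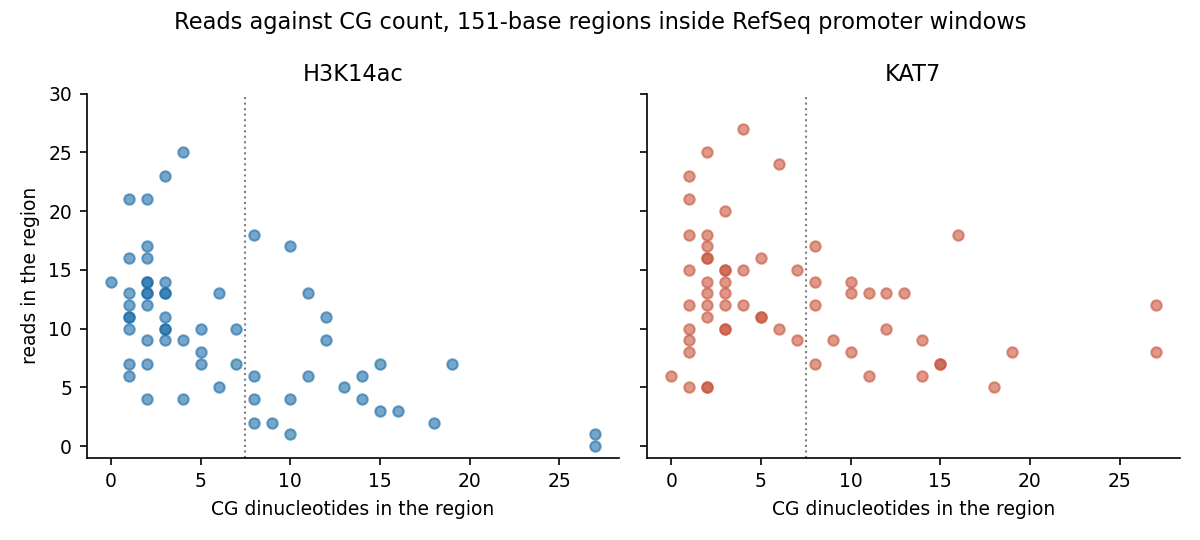
Reads in each of the 61 regions of 151 bases inside RefSeq promoter windows (y axis) against the number of CG dinucleotides in the region (x axis), for H3K14ac (left) and KAT7 (right), each point 1 region and the dotted line between 7 and 8 CG. The 22 regions right of the line have 0 to 18 H3K14ac reads with a median of 4.5, and 5 to 18 KAT7 reads.

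Lower H3K14ac was also found with all 4404 members of 151 bases and the table's own CpG islands, whereas KAT7 was not lower there. The islands are themselves a CG-dense class, and 16 of the CG-rich and 1 of the CG-poor regions above are among the members on them. This comparison is therefore not independent of the first. GC content of the other members was not computed, and the part of GC-rich DNA recovery was not tested here either. The 116 that overlapped a far CpG island had an H3K14ac level of 0.445 RPKM, against 0.586 in the 4288 that did not, a ratio of 0.759 (0.714 to 0.805). Reads per region ran from 0 to 29 on islands with a median of 9, and from 0 to 34 off islands with a median of 12. On islands 32 of 116 members (27.6%) held 5 or fewer H3K14ac reads, against 277 of 4288 (6.46%) off islands. KAT7 showed no such gap: the median was 12 reads in both groups, and 5 or fewer reads were counted in 4 members on islands (3.45%) and 143 off islands (3.33%). The KAT7 level on islands was 0.663 against 0.627, a ratio of 1.06 (1.01 to 1.11), but 1 member decided that excess. Without EN15635 and EN14758, the 151-base members above 4 RPKM of KAT7 described below, of which the first lies on an island, the ratio was 1.01 (0.956 to 1.06), and that of H3K14ac was 0.745 (0.701 to 0.792). In members that overlap no RefSeq gene, the KAT7 ratio was 1.19 (1.10 to 1.28) with them and 1.07 (0.987 to 1.16) without them.

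**Figure D2:**
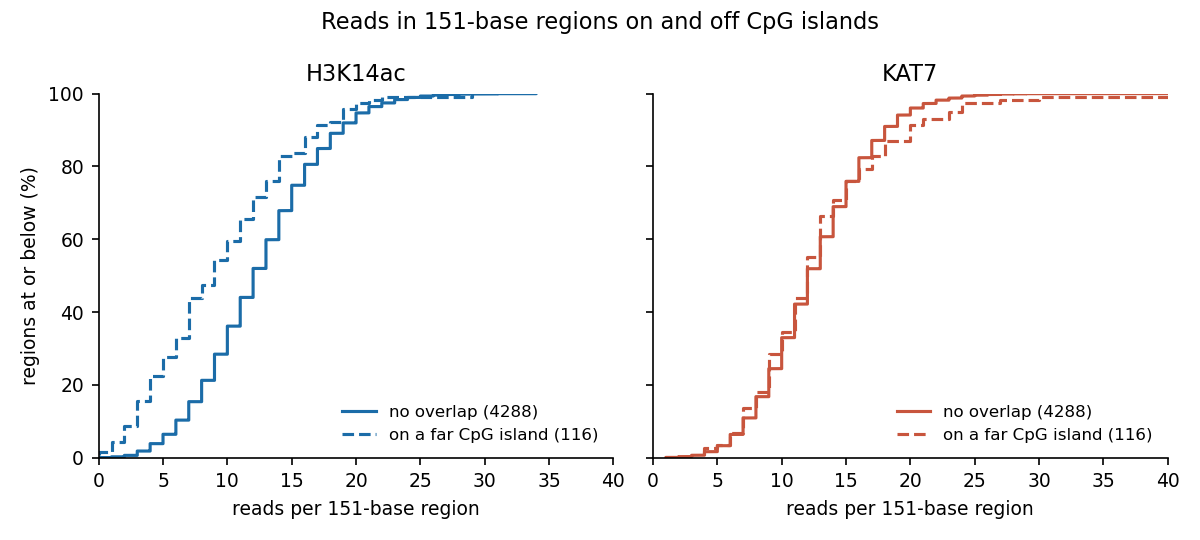
Cumulative share of the 151-base intergenic regions (y axis, percent) at or below a number of reads (x axis, reads per region; 2 regions with 84 and 88 KAT7 reads lie beyond it), for 116 regions on far CpG islands (dashed) and 4288 off them (solid). The H3K14ac curves part, with medians of 9 and 12 reads, while the KAT7 curves share a median of 12.

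The lower H3K14ac on islands was measured at both ranges of distance, 0.742 (0.682 to 0.806) under 50 kb from a TSS and 0.800 (0.732 to 0.872) at 50 kb or more. It was also measured in the 78 island members more than 1 kb from any RefSeq promoter window, 0.797 (0.742 to 0.856), and in the 58 far Enh regions of this length on islands inside genes, 0.801 (0.737 to 0.870). In long members it was small, 0.968 (0.958 to 0.979) without EN1009, the member with the highest H3K14ac RPKM, and 0.983 (0.972 to 0.994) with it. The KAT7 ratio in long members was 1.02 (1.01 to 1.03) without EN1009 and 1.03 (1.02 to 1.05) with it. In long members that overlap no RefSeq gene it was 0.993 (0.974 to 1.01), so its direction did not hold there. In members of over 160 and up to 700 bases neither antibody could be told from 1. By scaled reads, KAT7 over H3K14ac was 1.49 (1.38 to 1.61) in the 116 short members on islands and 1.07 (1.06 to 1.08) off them. The ratio's own 95% interval lay above 1 in 27 of the 116 (23.3%) and in 4.17% of the others, beside 5.03% of all 18899 far Enh regions. Members on an IS far from TSS entry but on no CpG island had less of both antibodies in long members, 0.954 (0.944 to 0.963) for H3K14ac and 0.954 (0.945 to 0.964) for KAT7.

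Levels differed most by length. H3K14ac was 0.583 RPKM (0.578 to 0.587) in the 4404 short members, 0.464 (0.458 to 0.470) in the middle band and 0.421 (0.420 to 0.422) in the long band. KAT7 followed the same order, with 0.628 (0.623 to 0.633), 0.469 (0.462 to 0.475) and 0.416 (0.415 to 0.417). A short member held a median of 12 reads for either antibody, so single short members were known only coarsely, and the 10th to 90th percentiles ran from 0.282 to 0.894 for H3K14ac and from 0.348 to 0.895 for KAT7. In finer bands the H3K14ac level went down in steps, from 0.512 (0.444 to 0.589) in the 12 members of over 160 and up to 250 bases to 0.417 (0.416 to 0.419) in the 2541 above 1200 bases. A straight line of reads on length, fitted to the long members, had a slope of 0.400 RPKM for H3K14ac and 0.402 for KAT7, with 4.6 and 3.0 reads left at length 0. On that line a 151-base region would hold 13.1 H3K14ac and 11.1 KAT7 reads, and the short members held 12.4 and 12.6 on average. With each region lengthened to match the line, short over long turned from 1.38 to 0.943 for H3K14ac and went from 1.51 to 1.14 for KAT7. What sets the reads left at length 0 was not tested. Levels below were compared within length bands, except beside the H3K9me3 windows and in the medians of gene lists, which pool lengths.

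Outside short regions the level lay a little above that of heterochromatin windows, which are much longer. The median of 24742 H3K9me3 windows (H3K9me3 marks silenced chromatin; median length 12001 bases) was 0.392 RPKM for H3K14ac and 0.393 for KAT7, with 10th to 90th percentiles of 0.352 to 0.433 for H3K14ac. Long members had a median of 0.420 for H3K14ac and 0.416 for KAT7. Levels dropped with length, so this difference was not separated from that of length. Without IgG values the share of background reads in these levels is not known. The spread of reads among short members was 1.91 times their mean for H3K14ac and 1.66 times for KAT7, where counting alone gives 1. Among long members, EN1009 included, it was 4.50 and 3.49 times. The printed intervals leave out this spread among regions, so small ratios in long members are less sure than their intervals show.

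Members were set against the far Enh regions inside genes to see what being intergenic changed. KAT7 was lower outside genes in each band, with ratios of 0.971 (0.959 to 0.983) in short, 0.965 (0.947 to 0.983) in middle and 0.966 (0.962 to 0.970) in long regions. H3K14ac was lower outside genes in long regions alone by this measure, 0.983 (0.979 to 0.987), and could not be told from 1 in short (1.01, 0.993 to 1.02) and middle regions (0.988, 0.970 to 1.01). With regions above 5 RPKM kept, all of them inside genes, the short H3K14ac ratio was 0.981 (0.969 to 0.993). These differences of a few percent exceed counting error and have no replicate check.

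**Figure D3:**
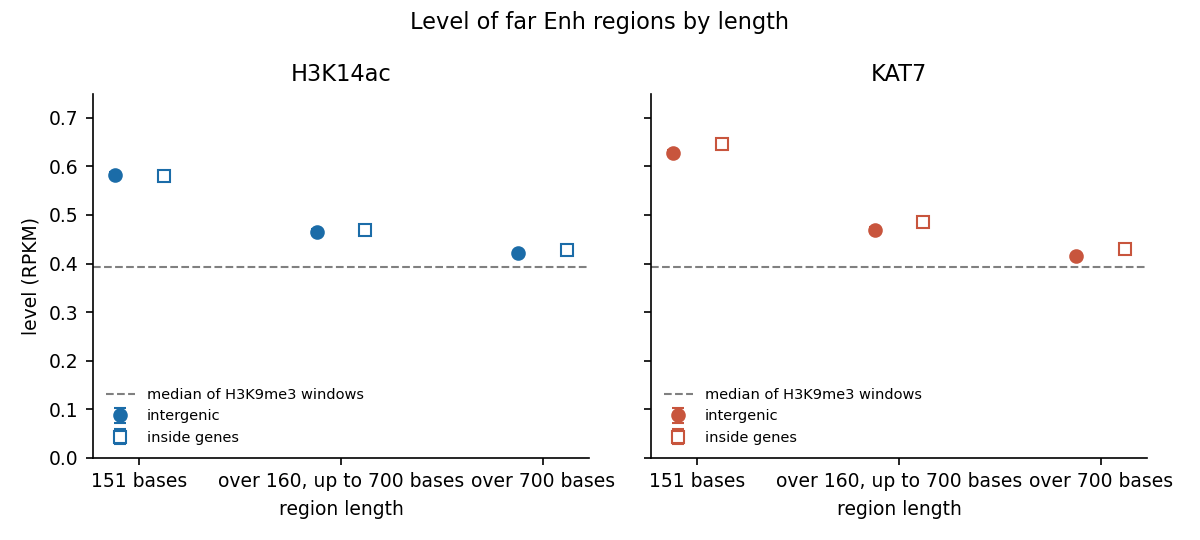
Level in RPKM (y axis, from 0) of far Enh regions by length (x axis) for intergenic regions (filled circles) and those inside genes (open squares), with 95% Poisson intervals smaller than the symbols; the dashed line is the median of the H3K9me3 windows. Levels drop from 0.583 to 0.421 for H3K14ac and from 0.628 to 0.416 for KAT7 with length, and the 2 groups lie close together.

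With distance from the nearest TSS, H3K14ac moved in opposite ways in short and long members. In short members it was 0.540 (0.526 to 0.556) at 10 to 20 kb, 0.565 at 20 to 50 kb, 0.586 at 50 to 100 kb, 0.599 at 100 to 250 kb, 0.590 at 250 to 500 kb and 0.635 (0.612 to 0.659) beyond 500 kb. The last over the first was 1.18 (1.12 to 1.23). The steps of 50 to 100, 100 to 250 and 250 to 500 kb overlapped in their intervals. Those of 10 to 20 and 20 to 50 kb just did. In long members it went from 0.425 (0.421 to 0.429) at 10 to 20 kb to 0.407 (0.400 to 0.415) beyond 500 kb, a ratio of 0.959 (0.940 to 0.979). KAT7 changed less: beyond 500 kb over 10 to 20 kb was 1.05 (1.01 to 1.10) in short members and 0.993 (0.973 to 1.01) in long ones. In the middle band neither antibody could be told from a ratio of 1 between those ends, 1.07 (0.995 to 1.14) for H3K14ac and 1.06 (0.990 to 1.14) for KAT7.

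The distance comparison was repeated without members on islands or near RefSeq promoter windows. In members on no far CpG island and over 1 kb from RefSeq promoter windows, beyond 500 kb over 10 to 20 kb was 1.17 (1.12 to 1.23) for H3K14ac and 1.04 (0.995 to 1.10) for KAT7 in short members. In long ones it was 0.970 (0.950 to 0.991) and 1.01 (0.986 to 1.03).

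**Figure D4:**
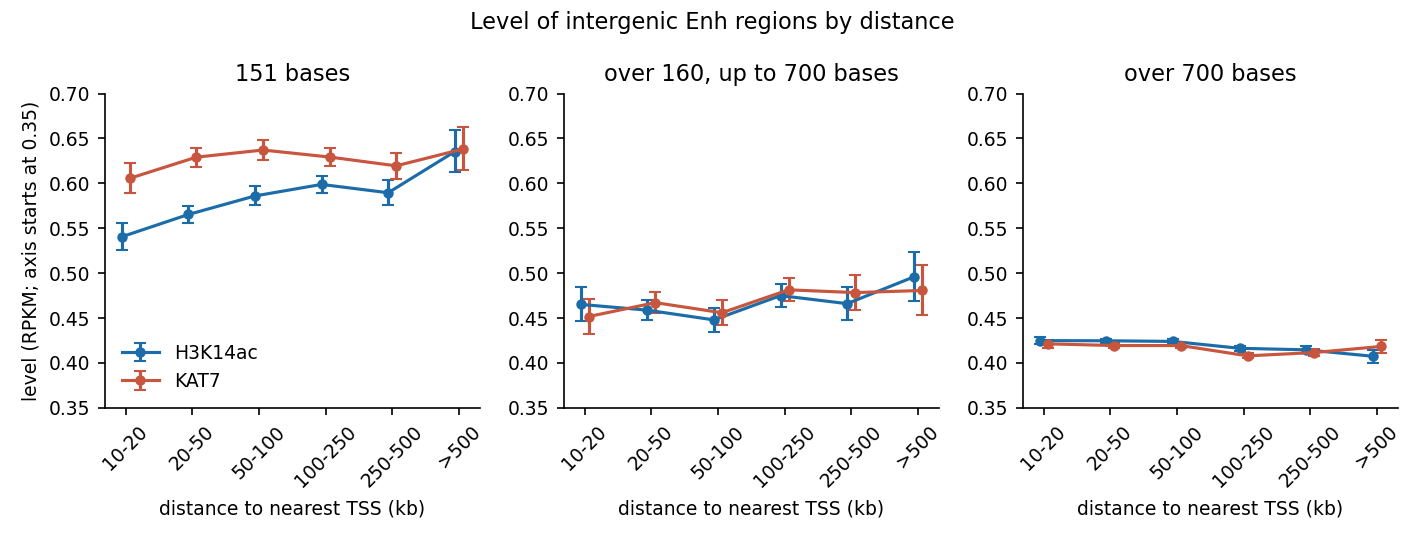
Level in RPKM (y axis, starting at 0.35) of intergenic regions by distance to the nearest TSS in kb (x axis, 6 classes), in 3 panels by length, with 95% Poisson intervals. H3K14ac of 151-base regions goes from 0.540 to 0.635 RPKM with distance, and that of regions over 700 bases from 0.425 to 0.407.

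The nearest gene's expression class went with H3K14ac in long members. Those nearest a Top gene (213 regions) had 0.438 RPKM (0.432 to 0.444), those nearest the middle 90% of genes, the class Other, 0.421 (0.420 to 0.422), and those nearest a Bottom gene (228) 0.404 (0.399 to 0.410). Top over Bottom was 1.08 (1.06 to 1.10) for H3K14ac and 1.03 (1.01 to 1.06) for KAT7. Within 50 kb of the TSS the H3K14ac ratio was 1.10 (1.07 to 1.13) and at 50 kb or more it was 1.06 (1.03 to 1.09), while KAT7 had 1.04 (1.01 to 1.07) and 1.03 (0.997 to 1.05). Short members showed no such order: Top over Bottom was 0.995 (0.943 to 1.05) for H3K14ac and 0.978 (0.928 to 1.03) for KAT7. In the middle band, with 38 and 19 regions, the ratios were 1.10 (1.00 to 1.21) and 1.11 (1.01 to 1.22). What expression data made these classes is not given in the sources used here, and the nearest gene need not be the gene that a region acts on.

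High members were those at or above the 95th percentile of autosomal far Enh regions in their length band, for short regions 20 reads of either antibody. The lowest high short member had 0.941 RPKM of H3K14ac and the highest one below the threshold 0.894, a difference of 1 read. High for H3K14ac were 605 members (6.38%), beside 5.95% of all 18899 far Enh regions, the share above 5 coming from ties at 20 reads. High for KAT7 were 480 (5.06%), beside 5.71%. Inside genes the order was the other way, with 520 regions high for H3K14ac (5.52%) and 600 for KAT7 (6.37%). Both antibodies were high in 74 members, 12.2% of those high for H3K14ac and 15.4% of those high for KAT7. Across members the rank correlation of KAT7 with H3K14ac was 0.21 in short, 0.27 in middle and 0.35 in long regions, which share input chromatin, base composition and mappability. The interval of the KAT7 to H3K14ac ratio lay above 1 in 441 members (4.65%), beside 5.03%, and below 1 in 383 (4.04%), beside 3.81% of all far Enh regions.

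The strongest single members fell into 2 kinds, all chosen here by their reads. EN1009 (chr9:123924522-123925408, 62.9 kb from the TSS of the chemokine receptor gene Xcr1) had the highest RPKM of all members in both columns. It held 578 H3K14ac reads or 4.60 RPKM (4.24 to 4.99) and 541 KAT7 reads or 4.55 (4.18 to 4.95). Only its H3K14ac level stood far above all others, since the KAT7 intervals of EN14758 and EN15635 overlapped its own. None of 13 other regions of the table within 5 kb of EN1009 exceeded 2 RPKM, the highest being 0.753 for H3K14ac. EN14758 (chr2:22744820-22744970, 29.4 kb from Apbb1ip) had 34 H3K14ac reads but 84 KAT7 reads, 4.18 RPKM (3.33 to 5.17). EN15635 (chr8:19784580-19784730, 55.1 kb from 4930467E23Rik) had 29 and 88 reads, and 5 of 13 other regions within 5 kb also exceeded 2 RPKM, as did 1 of 2 near EN14758. The regions near EN15635 reached 5.10 RPKM of H3K14ac and 5.22 of KAT7, above its own levels, so that this member did not stand alone. What the 3 members share was not tested.

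Among the others, EN14671 (chr16:91301560-91301710) lay 31.9 kb downstream of the TSS of Olig1, a factor of the oligodendrocyte lineage whose gene is in the Top class. It had 34 H3K14ac reads, 1.60 RPKM (1.11 to 2.23), and 21 KAT7 reads, 1.04 (0.646 to 1.60), and was high for both. EN17248 (chr2:166206460-166206610, 50.9 kb upstream of Sulf2, a heparan sulfate sulfatase gene of the Top class) had 31 H3K14ac but 11 KAT7 reads. EN737 (chr6:31596186-31597936) is long and lies 33.1 kb upstream of Podxl, which encodes the sialomucin podocalyxin. It held 272 H3K14ac and 249 KAT7 reads, 1.10 RPKM (0.970 to 1.24) and 1.06 (0.933 to 1.20), the highest KAT7 level of members above 1200 bases.

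Most members named at the ends of the KAT7 to H3K14ac ratio were short ones with few reads of one antibody. Besides the Dnmbp region, EN8148 (chr16:13437140-13437290, near 2310015D24Rik and on a CpG island) had 0 H3K14ac and 14 KAT7 reads, and the interval of its ratio began at 3.51. EN32161 (94.8 kb from Ccnl1, a cyclin of RNA processing) had 2 and 19 reads, and EN18475 (323 kb from Matn1, a cartilage matrix protein gene) had 1 and 13. In the other direction, EN4063 (14.9 kb from Dusp7, a phosphatase gene of MAP kinases) had 15 H3K14ac reads and 1 KAT7 read. EN18168 (47.6 kb from Rtl6) had 31 and 7, EN19358 (338 bases, 38.2 kb from Fabp5, a fatty acid binding protein gene) had 39 and 9, and EN17547 (146 kb from Cadm1, a cell adhesion gene) had 16 and 2. Among 9486 regions, ratios this far apart carry wide intervals, for EN4063 0.0017 to 0.458.

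Neighbouring members at most 20 kb apart were chained into 5741 loci, of which 3661 held a single member, 2080 held 2 or more and 11 held 10 or more. Neighbours resembled each other weakly: the rank correlation of adjacent members' levels within their bands was 0.13 for H3K14ac and 0.12 for KAT7 at gaps up to 2 kb, and 0.02 and 0.06 at 20 to 100 kb. At least 3 high members for H3K14ac were found in 4 loci and for KAT7 in 1. A locus level is given below as reads over the number expected from its members' lengths and bands. High members chose these loci, so the values are descriptions. With gaps of at most 10 kb 1 locus had 3 members high for H3K14ac, and with 50 kb 12 had.

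The Nfib locus (chr4:82527642-82663691, 17 members, 23.4 to 157 kb upstream) belongs to a gene for a nuclear factor I protein that acts in glial and cortical development. All 4 of its high H3K14ac members had 151 bases. EN10659, 79.4 kb upstream, had 28 H3K14ac and 21 KAT7 reads and EN19208, 131 kb upstream, had 25 and 21, so that both were high for both antibodies. EN10788 and EN11615 had 20 H3K14ac reads each, at the threshold, with 14 and 10 KAT7 reads. Of these high members, EN10659 and EN10788 overlapped a RefSeq gene. EN145, a member of 10059 bases, had 0.424 RPKM of H3K14ac and 0.488 of KAT7, and the locus as a whole had 1.05 (1.00 to 1.10) and 1.07 (1.02 to 1.12) times the expected reads.

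The locus between Fbln2, an extracellular matrix gene, and Wnt7a, a Wnt ligand gene (chr6:91277680-91360270, 11 members), had 1.25 times the expected H3K14ac (1.17 to 1.32) and 1.05 times the expected KAT7 (0.980 to 1.12). Its high members were 2 long ones, with 0.584 and 0.624 RPKM of H3K14ac, and 1 of 151 bases with 20 reads. The largest locus of all, upstream of Gse1 and Cibar2 (chr8:120256642-120472916, 42 members), had 4 members high for H3K14ac and 1 for KAT7, with 1.04 (1.01 to 1.08) and 1.02 (0.988 to 1.05) times the expected reads. It has the most members, so a count of high ones weighs less there. All its high members overlapped a RefSeq gene, so the name intergenic holds for them only by the genes of the table.

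The Wnt7b and Mirlet7c-2 locus (chr15:85612606-85687250, 9 members) was the one with 3 high KAT7 members. Wnt7b encodes a Wnt ligand and Mirlet7c-2 a let-7 microRNA. KAT7 was 1.33 times the expected (1.26 to 1.39) and H3K14ac 1.22 times (1.16 to 1.29). The high members were 3 consecutive long ones on the Mirlet7c-2 side, EN4211 with 0.839 RPKM of KAT7 and 0.673 of H3K14ac, EN89 with 0.758 and 0.636, and EN1012 with 0.560 and 0.492. The 5 members on the Wnt7b side of them had 0.344 to 0.476 of KAT7.

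**Figure D5:**
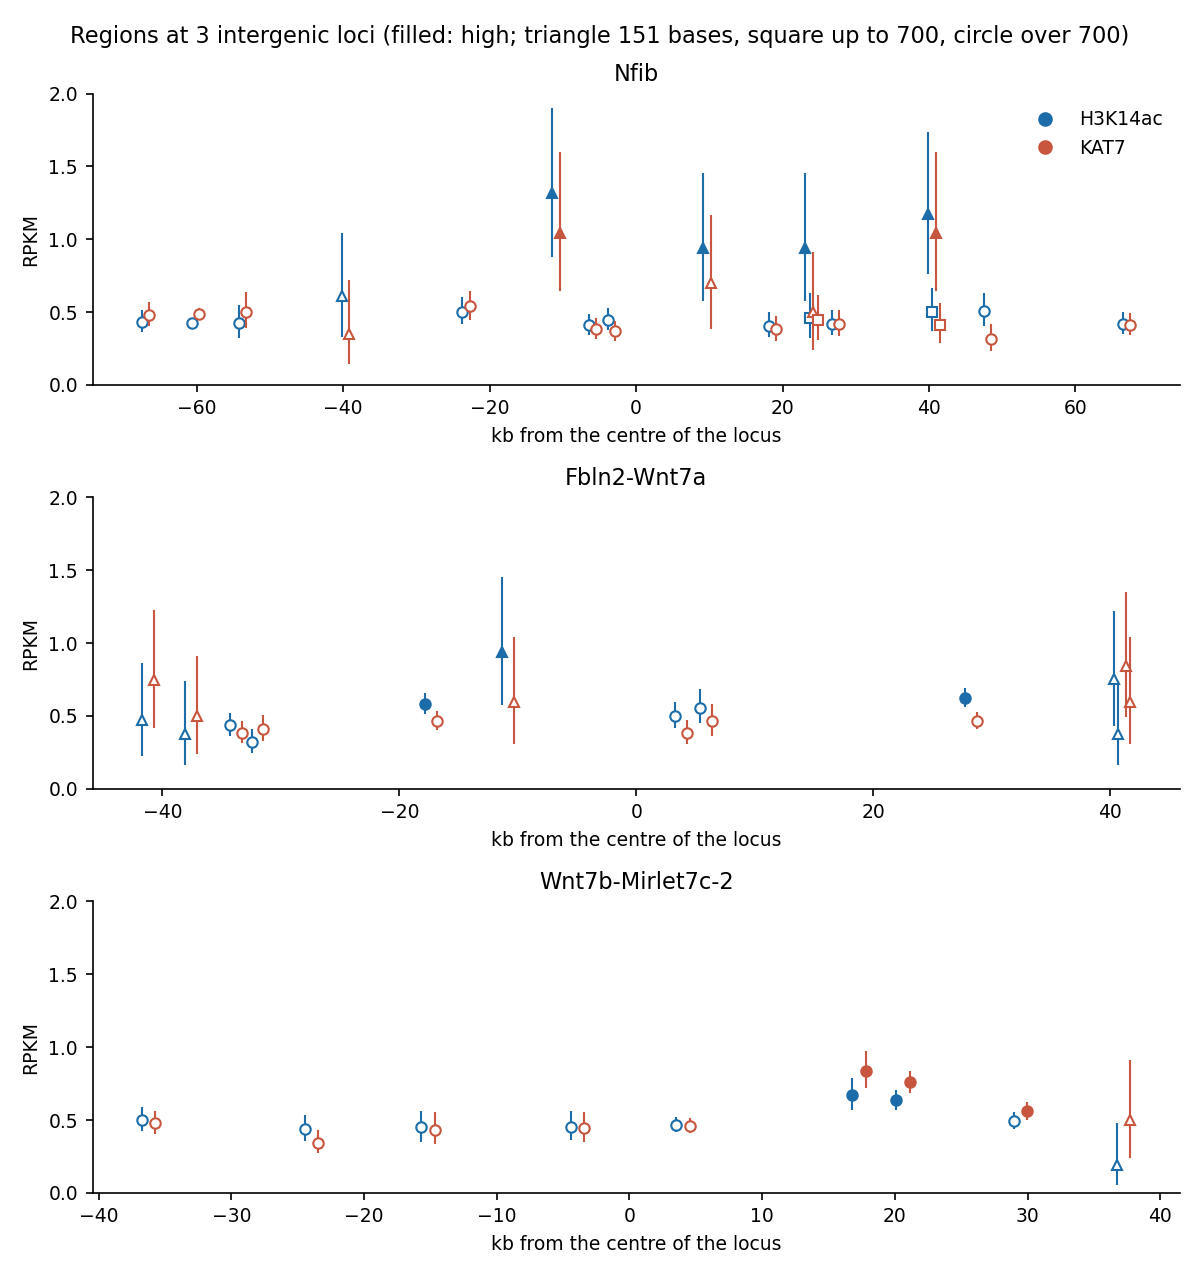
RPKM (y axis) of each member at 3 loci against its distance in kb from the centre of the locus (x axis), H3K14ac in blue and KAT7 in red, with 95% Poisson intervals, filled where the member is high and shaped by length. The 4 high H3K14ac members of the Nfib locus are short and stand apart from each other, and those of the Wnt7b locus are long and lie next to each other.

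At least 2 high members were found in 41 loci for H3K14ac and in 22 for KAT7, and in 3 for both. Upstream of Notch1, the receptor gene of a pathway that keeps neural progenitors undifferentiated, both long members of a locus (chr2:26532922-26536627) were high for H3K14ac, with 0.683 and 0.698 RPKM. The locus had 1.64 times the expected H3K14ac (1.46 to 1.83) and 1.14 times the expected KAT7 (0.990 to 1.31). Near Ipmk, an inositol phosphate kinase gene (chr10:71426840-71427610), 2 short members had 24 and 20 H3K14ac but 9 and 8 KAT7 reads. Loci with 2 high KAT7 members included one at chr10:91881493-91888770, where KAT7 was 1.61 times the expected (1.22 to 2.09). Its nearest gene in the table was Rmst, a noncoding RNA of neuronal differentiation, with the TSS 276 to 284 kb away. The short member of this locus is the region printed above from the Gm31592 window. Another such locus was near Mir302b (chr3:127498280-127499670, KAT7 1.44, 1.16 to 1.77) and lies on a CpG island. Near Foxn3, a forkhead gene (chr12:99497860-99520010), KAT7 was 1.31 times the expected (1.13 to 1.51) while H3K14ac was 0.889 times (0.746 to 1.05). The loci near Pgf (1.54, 1.31 to 1.79), a placental growth factor gene, and Arnt2 (1.41, 1.27 to 1.57), a bHLH-PAS factor gene of the brain, had H3K14ac above the expected too, 1.22 (1.03 to 1.44) and 1.31 (1.17 to 1.45). The high members of the Mir302b, Foxn3 and Arnt2 loci overlapped a RefSeq gene.

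Members were also read by lists of the nearest gene's function, beside all members, whose medians were 0.462 RPKM of H3K14ac and 0.465 of KAT7 and of which 6.38% and 5.06% were high. Of POU and other neural progenitor factors, 11 of 20 genes were the nearest to 63 members, of which 9 were high for H3K14ac and 6 for KAT7, with medians of 0.470 and 0.488 (30 of the 63 were short, against 4404 of all 9486). These counts include the 17 members at Nfib, 13 at Nr2f1, an orphan receptor gene of cortical patterning, and 8 each at Pou3f2 and Sall3. Of neural stem and radial glia genes, 12 of 20 had 36 members, with 2 high for each antibody. Among them Ptprz1, a receptor phosphatase gene of radial glia in the Top class, had 5 members with 1.58 times the expected H3K14ac (1.45 to 1.72) and 1.02 times the expected KAT7 (0.916 to 1.14). Its long member EN2634 (chr6:22834012-22835072) had 0.772 RPKM of H3K14ac and 0.556 of KAT7. The 8 members nearest Sox2, which maintains neural stem cells, had medians of 0.416 and 0.412 and none was high.

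Notch pathway genes (6 of 12) had 13 members, 2 of them high for H3K14ac and none for KAT7, the 2 at Notch1. The 4 members nearest the ligand gene Dll1 had 0.947 times the expected H3K14ac (0.805 to 1.11) and 0.745 times the expected KAT7 (0.616 to 0.893). Oligodendrocyte lineage genes (4 of 11) had 12 members, 2 high for H3K14ac and 3 for KAT7. The 5 nearest Mbp, the myelin basic protein gene, had 0.685 times the expected H3K14ac (0.535 to 0.864) and 1.13 times the expected KAT7 (0.930 to 1.36). Ventral forebrain and interneuron factors (4 of the 12 found in the table) had 9 members, none high for H3K14ac and 3 high for KAT7, 2 of them nearest Dlx2, a homeobox gene of interneuron formation. The 5 members at Dlx2 had 1.24 times the expected H3K14ac (1.13 to 1.36) and 1.16 times the expected KAT7 (1.05 to 1.28).

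Dorsal cortical factors (7 of the 13 found in the table) had 17 members, 5 of them short and none high, with medians of 0.423 and 0.398. Of these, the 5 nearest Bcl11b, a zinc finger gene of deep-layer neurons, had 0.807 times the expected H3K14ac (0.696 to 0.931) and 0.721 times the expected KAT7 (0.614 to 0.842). Cell cycle and MYC genes (6 of 14) had 39 members, 21 of them at Mycn, with 3 high for H3K14ac and 1 for KAT7. Immediate early genes (8 of 12) had 22 members, 2 high for H3K14ac and 1 for KAT7, and their gene with most members was Klf4 (8). FGF and EGF signalling genes (10 of 14) had 22 members, with 2 and 1 high, and BMP pathway and ID genes (6 of 12) had 18, with 1 and 1. Of genes of other lineages, mesoderm and endoderm factors (5 of the 17 found in the table) had 10 members, 2 high for H3K14ac and none for KAT7, astrocyte genes (3 of 9) had 8 and none high, and skin and keratin genes (1 of the 7 found in the table) had 2 members, both near Trp63, 1 of them high for H3K14ac.

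A microRNA hairpin lay wholly in 3 members and partly in EN32394, shown because microRNA genes can start far from any gene of the table. EN28649 (chr3:118432829-118435863, 3035 bases) holds Mir137, a microRNA of neuronal differentiation, and had 0.284 RPKM of H3K14ac (0.236 to 0.339) and 0.383 of KAT7 (0.326 to 0.448), so that KAT7 over H3K14ac was 1.35 (1.06 to 1.73). Both values are below the levels of long members, 0.421 and 0.416, but the KAT7 interval includes that level. EN27710 (Mir344f) had 0.302 and 0.420, EN32394 (Mir344i) 0.282 and 0.646, and EN12815 (Gm51288) 0.753 and 0.845. The mature sequences of Mir137, from RefSeq, follow with the seed, bases 2 to 8, in capitals. The 2 arms have different seeds.
mmu-miR-137-5p: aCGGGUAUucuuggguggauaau
mmu-miR-137-3p: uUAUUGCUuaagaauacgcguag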

How the data were processed

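The authors summarised chromatin immunoprecipitation reads per genomic region in 1 deposited table. Each region has a merged read count and an RPKM value for either antibody, H3K14ac or KAT7, per the file headers. Per the submitters' processing notes the build was mm10 and the tools were Bowtie2, SAMtools, Picard, deepTools and featureCounts. Not given in the sources used here are versions, which libraries were merged, and what SC and gc mean in the column names. The deposited RPKM equals the count over end minus start (150 for a region of 151 bases) and 1 column total, within a relative deviation of 4.96e-10. The deposited counts were used for every level, summed over regions, with exact Poisson intervals, and ratios carry exact conditional binomial intervals (SciPy). Such intervals were tested only on counts simulated from the Poisson model they assume, which lacks the wider spread of the reads here. Regions above 5 RPKM, sharing bases within their class, or below 0.1 in mean RPKM were left out. Distances run from a region's middle to the nearest TSS in the table, whose 20689 genes had RefSeq symbols in 96.7%. Positions are printed as the table gives them. Planned tests between groups need single libraries and were not run. Named are the 12 loci with most high members per antibody, 8 members with the highest lower bound, 5 at each end of the ratio, and the leading gene and members of each of 13 lists; some are given as counts alone, and 1 locus is not reported here. Members, lists, the split at 8 CG and the loci were chosen with earlier results of these data known.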

Additional observations from a re-analysis of the deposited data

How the results depend on the processing

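The 43 results were recomputed under those of 21 settings that apply to each, 4 of the settings chosen after seeing these values, and 195 of 245 values moved by less than the counting interval or, for counts, by less than 1.5 times. No paired analysis was possible because the columns are merged and no result comes from a test, and for the same reason no replicate could be left out. Keeping rows that share bases, or low rows, moved no value. Depth limits single regions: 151 bases held a median of 12 reads.

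By the median of regions, short members had 0.564 RPKM of H3K14ac and 0.597 of KAT7, KAT7 of short intergenic over genic regions was 0.923, and long H3K14ac over 250 kb against under 50 kb was 0.982 in place of 0.972. With regions above 5 RPKM kept, intergenic over genic was 0.981 and 0.937 in short and 0.964 and 0.943 in long regions for H3K14ac and KAT7. With genes within 100 kb alone, 13 and 10 members of any gene list were high, against 26 and 18. With a 99% interval, 155 and 131 members had a ratio above and below 1. At the 90th percentile 972 and 993 members were high for H3K14ac and KAT7, with 13 and 14 loci of several high members; at the 99th percentile there were 129 and 107 members and 0 and 0 loci. Gaps of 10 kb gave 1 locus for H3K14ac, and gaps of 50 kb gave 12 and 4. Asking for 2 high members gave 41 and 22 loci, and asking for 4 gave 0 for KAT7. Among short members with at least 10 reads in both columns the rank correlation was 0.089, against 0.214.

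The settings that follow were chosen after seeing the data, except the finest bands, where short over long was 1.40 for H3K14ac and 1.53 for KAT7. With regions lengthened to the line of reads on length, levels were 0.378 and 0.458 in short, 0.401 and 0.423 in middle and 0.400 and 0.402 in long members, and short over long was 0.943 for H3K14ac, below 1, and 1.14 for KAT7. What sets the intercept was not tested. In members overlapping no RefSeq gene, H3K14ac was 0.587 in short and 0.423 in long members, 0.959 over 250 kb against under 50 kb, 1.06 for Top over Bottom and 0.988 for intergenic over genic, all in long members. On against off CpG islands was then 0.815 and 1.19 in short members and 0.965 and 0.993 in long ones. The KAT7 value of long members fell below 1 with an interval that included 1, and why it changed was not tested. Without EN1009, or without the 3 members above 4 RPKM of KAT7, the long ratios were 0.968 and 1.02.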
